A study of Mus musculus with 8 samples.

Results

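Mouse induced pluripotent stem cell (iPSC) clones numbered in the forties were compared with clones numbered in the thirties, over autosomal genes. The forties clones are Ctrl 41, Ctrl 43, TKO 47 and TKO 48, the thirties clones are Ctrl 33, Ctrl 34, TKO 35 and TKO 37, and each genotype therefore has 2 clones of each number series. Of the 27052 RefSeq transcript records in the table, 16235 passed a filter of 5 or more reads in 4 or more of the 8 libraries. The members are the 15285 of these that lie on autosomes, which stand for 14250 genes, and 628 X- or Y-linked records and 322 records without a known chromosome were left out. All clones came from mouse embryonic fibroblasts (MEFs) of a mixed background and were reprogrammed by retroviral delivery of c-MYC, KLF4, SOX2 and OCT4. TKO clones lack functional *Miwi*, *Mili* and *Miwi2*, the 3 Piwi genes, and Ctrl clones came from triple heterozygous or other control littermates. All were grown in medium with serum and the cytokine LIF and sampled at fewer than 10 passages. Clones were picked onto mitotically inactive MEF feeder cells, so RNA of fibroblasts may be present in each library. The labels do not state what a clone number stands for, from which embryo a clone came, or whether clones of a series were derived or harvested together. Series, embryo and batch therefore cannot be told apart here, nor can sex (see the Y-linked counts below), and p-values take the 8 clones as independent.

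Pluripotent cells move between states. In the naive state, LIF and a network around Oct4, Sox2 and Nanog hold them as in the early epiblast. Under activin and FGF they become primed and express Fgf5 and Otx2, and WNT and Nodal signals then turn on primitive streak genes such as T, which encodes Brachyury, and Mixl1. A small and changing part of a mouse pluripotent culture instead switches on genes of the two-cell embryo, among them the Zscan4 family. In bulk RNA, fewer cells of a type and less RNA per cell cannot be told apart.

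Total counts ran from 8983203 (Ctrl 33) to 52457455 (TKO 37), and the deepest libraries, TKO 35 and TKO 37, are both thirties clones. Values below are normalized counts, that is, reads divided by the size factor of the library, which ran from 0.369 to 2.07. The iPSC markers Pou5f1 (15900 to 29000), Sox2 (8730 to 13000), Nanog (7440 to 14700) and Dppa5a (47400 to 88600) were high in every clone and none passed the test, while Esrrb was near 0 (0 to 2.71) in all clones. Counts of Pou5f1, Sox2 and Klf4 may include RNA of the retroviral OCT4, SOX2 and KLF4, and this was not tested. The sum of 7 fibroblast markers was 19100 to 56200 in the thirties and 18800 to 31500 in the forties clones. Of the defining blood markers, Ptprc and Hba-a1 were at or near 0 throughout. Piwil2, which is *Mili*, had 758 to 1028 counts in the Ctrl and 3845 to 10080 in the TKO clones, and its series difference did not pass (log2 -0.38, adjusted p = 0.289). The authors describe the raised *Mili* transcripts of TKO cells as truncated and without function. The series also differ outside the autosomes, with 10.8 to 17.3 summed counts of 4 Y-linked records in the thirties and 312.5 to 543 in the forties clones. The level of Y-linked transcripts thus goes with series in every clone, and sex cannot be told apart from series here.

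The thirties and forties clones differed over a large part of the autosomal transcriptome. With genotype as a term in the model, edgeR's quasi-likelihood test called 2979 of the 15285 records (19.5%) at an adjusted p under 0.05, of which 1490 were higher and 1489 lower in the forties clones. Of these, 577 (3.77% of all records) reached a 2.5-fold difference as well, with 322 higher and 255 lower. Counted once per gene, 1441 genes (10.1%) were higher and 1462 (10.3%) were lower, and these shares are the background for each gene group below. The median log2 difference over all genes was -0.01, and 76.7% of the records lay within 1.5-fold. The genotype term of the same model called 893 records (5.84%). The values of the 4 forties and the 4 thirties clones did not overlap for 2480 records (16.2%), which include 1794 of the 2979 called and 407 of the 577 past 2.5-fold. Among the 3563 genes with the lowest counts (means of 2.28 to 41.7), 8.25% passed 2.5-fold, against 0.365% among the 3563 with the highest (means of 1410 to 317000), so the large differences lie mostly in weakly expressed genes. The count of calls depends on single clones: leaving out TKO 35 gave 1211 and TKO 37 gave 1331, and it was 1903 if TKO 47 and 1909 if Ctrl 43 was left out, while the count past 2.5-fold was 375 without TKO 35 and 382 without TKO 37.

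The clones of a series were not equally alike. Between clones of the same genotype and series, the biological coefficient of variation was 0.058 for TKO 35 and TKO 37, 0.083 for Ctrl 41 and Ctrl 43, 0.164 for TKO 47 and TKO 48 and 0.203 for Ctrl 33 and Ctrl 34. Among the forties clones, pairs of different genotype had 0.193 to 0.214, near the 0.203 of the Ctrl thirties pair. The most distant pair was Ctrl 43 and TKO 35 at 0.405. Ctrl 33 was as close to TKO 47 of the other series and genotype (0.209) as to Ctrl 34. The first principal component (43.4% of the variance) placed the forties clones at 16.5 to 50.1, Ctrl 33 and Ctrl 34 at -9.6 and -9.9, and TKO 35 and TKO 37 at -61.1 and -57.6. The thirties clones thus do not form 1 compact group, and TKO 35 and TKO 37 lie farthest from the forties clones.

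**Figure D1:**
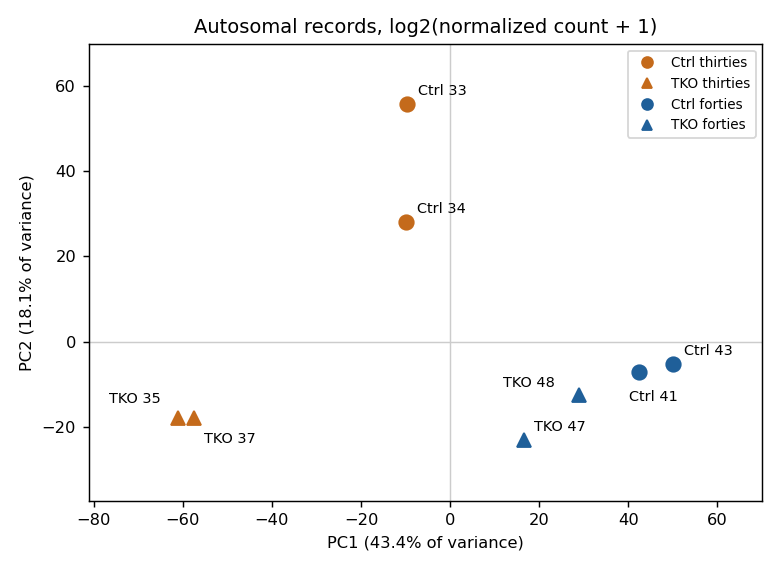
Principal components of log2(normalized count + 1) over autosomal records, with PC1 (43.4% of the variance) on the x axis and PC2 (18.1%) on the y axis, circles for Ctrl, triangles for TKO, orange for thirties and blue for forties clones. The 4 forties clones lie together at PC1 of 16.5 to 50.1, Ctrl 33 and Ctrl 34 at -9.6 and -9.9, and TKO 35 and TKO 37 at -61.1 and -57.6.

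Genes of the primed epiblast and the primitive streak were among those with the largest increase in the forties clones. To name genes evenly, the 12 genes with the largest fitted change in each direction were taken among 212 genes (122 higher, 90 lower) that were called, reached 2.5-fold, averaged 50 or more normalized counts in the higher series, did not overlap and had the same direction in both genotypes. Lhx1, a LIM-homeobox transcription factor of the anterior streak and node, led the list. It had 8.13, 2.88, 2.26 and 0 counts in Ctrl 33, Ctrl 34, TKO 35 and TKO 37, and 535, 188.5, 52.1 and 113 in Ctrl 41, Ctrl 43, TKO 47 and TKO 48. The thirties values rest on 0 to 4 reads, so Lhx1 passed the filter through its forties libraries alone, and it was tested in 13 of 19 alternatives. Its fitted log2 difference of 6.18 (standard error 0.62) is given as a description, as is the lack of overlap, which the choice of these genes required. Of the 12 higher genes, 8 reached 5 reads in fewer than 4 thirties libraries and so also passed with the help of the forties libraries. These are Lhx1, Tnn, Cer1, Serpina3h, Dhrs9, C1qc, Gm15772 and C1qb. Their differences and adjusted p-values, here and below, are therefore a description. Cer1, a secreted antagonist of Nodal, BMP and WNT ligands, had 2.71, 5.76, 3.96 and 2.41 counts in the same thirties clones and 532, 119, 94.2 and 64.1 in the forties clones. Its log2 difference was 5.22 (standard error 0.59, adjusted p = 0.00103), and Ctrl 41 stood above the other forties clones for both genes. Fgf5, the FGF ligand that marks the primed epiblast, had 48.8, 17.3, 7.36 and 9.65 counts against 623, 287, 220 and 186 (log2 difference 4.24, standard error 0.36, adjusted p = 0.000311). The lowest forties clone, TKO 48, had more Fgf5 than the highest thirties clone, Ctrl 33.

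Of 28 measured primitive streak and mesoderm genes, 11 were higher and 3 lower, with a median log2 difference of 0.67. With at least 10 reads required in every library, 7 were called. Over all alternatives the median ran from 0.14 to 0.72, so the size of this shift depends on the processing. The list members named here beyond those with the highest counts were chosen after their values were seen, and this holds for all lists below. T, the Brachyury gene, had 27.1, 18.7, 10.2 and 10.1 counts in Ctrl 33, Ctrl 34, TKO 35 and TKO 37 and 189, 184, 72.1 and 143 in Ctrl 41, Ctrl 43, TKO 47 and TKO 48 (log2 difference 3.25, standard error 0.27, adjusted p = 0.000272). Sp5, a direct WNT target, had 4.83 to 10.1 counts in the thirties and 15.0 to 72.7 in the forties clones (2.54, adjusted p = 0.00275). For both genes TKO 47 was the lowest forties clone and still above every thirties clone. Mixl1 (2.76, adjusted p = 0.0019), which encodes a homeobox factor of the streak, and Wnt3 (1.81, adjusted p = 0.00521), the WNT ligand that precedes it, were higher too. The streak genes Eomes (-0.35, adjusted p = 0.543) and Gsc (0.91, adjusted p = 0.185) did not pass. The lower members include Hand1 and Cdx1, which act later, in mesoderm derivatives and in patterning of the body axis. Hand1, also a trophoblast factor, had 330.5, 202, 692 and 1044 counts in the thirties against 62.3, 39.7, 100.2 and 58.1 in the forties clones. The TKO thirties clones were the highest, and the log2 difference of -2.96 (standard error 0.32, adjusted p = 0.000883) was the largest decrease among the named genes. The list had 8 called members without TKO 35 or without TKO 37, and 9 without TKO 47 or without TKO 48.

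The 250 bases before the transcript start of T and of Sp5 are shown because both are known WNT targets and differ together here. They are RefSeq sequence of the build GRCm38.p6, and capitals mark CTTTGA, the core of the TCF/LEF motif, or its reverse complement. In T, at chr17:8434173-8434422 on the plus strand, the motif begins 234 bases before the start. In Sp5, at chr2:70474673-70474922 on the plus strand, there are 2 matches, which begin 204 and 104 bases before it.
T: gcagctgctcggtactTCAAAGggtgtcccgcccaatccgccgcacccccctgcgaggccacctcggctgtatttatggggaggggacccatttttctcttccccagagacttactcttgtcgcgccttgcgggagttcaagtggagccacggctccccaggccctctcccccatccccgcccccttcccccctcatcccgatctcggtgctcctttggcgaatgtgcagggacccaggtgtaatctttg
Sp5: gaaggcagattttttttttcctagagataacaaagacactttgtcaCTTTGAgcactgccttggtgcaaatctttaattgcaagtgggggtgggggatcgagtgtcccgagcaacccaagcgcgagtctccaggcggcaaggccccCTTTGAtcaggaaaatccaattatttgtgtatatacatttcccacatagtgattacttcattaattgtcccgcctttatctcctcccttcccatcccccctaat
Of the 8 higher members of the streak list with a promoter in the table, 2 hold CTTTGA on either strand, against 12.1% of 11128 promoters of tested genes. The share is not particular to this list. In lists described below, it was in 2 of 9 promoters of higher macrophage genes and 2 of 7 of higher antigen presentation genes. A match in these letters is a description and does not show binding.

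Of 23 measured genes of the primed and formative epiblast, 7 were higher and 1 lower, with a median log2 difference of 0.41. With at least 10 reads required in every library, 6 were called. Otx2, a homeobox factor of the primed state, had 322, 541, 316 and 258 counts in the thirties and 1711, 1411, 1334 and 621 in the forties clones (1.80, standard error 0.24, adjusted p = 0.00189). TKO 48 was the lowest forties clone and still above each thirties clone. Cdh2, the N-cadherin gene (1.34, adjusted p = 0.00893), Grhl2, an epithelial transcription factor (0.95, adjusted p = 0.000871), Lin28b, which blocks let-7 maturation (0.91, adjusted p = 0.0355), and Sox4 (1.43, adjusted p = 0.00642) were also higher. Lin28b overlapped between the series, with 134 and 152.5 counts in TKO 35 and TKO 37, 387 and 533 in the Ctrl thirties clones and 413 to 598 in the forties clones. It was not called in 9 of 19 alternatives. Otx1 was lower (-1.86, adjusted p = 0.0142), from 10.8 to 21.6 down to 2.04 to 7.70 counts.

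Naive and core pluripotency genes did not move one way. Of 36 measured, 6 were higher and 4 lower, and the median log2 difference was 0.02. Lin28a, the paralogue of Lin28b, had 6027, 3243, 3247 and 3373 counts in the thirties and 11320, 12800, 6481 and 6941 in the forties clones (1.20, standard error 0.17, adjusted p = 0.00227). Tdh, the threonine dehydrogenase of mouse pluripotent cells, went from 5441 to 8820 up to 9506 to 13530 (0.81, adjusted p = 0.00161). The E-cadherin gene Cdh1 (0.57, adjusted p = 0.0112) and L1td1 (0.51, adjusted p = 0.0102) were higher by less. Alpl, the alkaline phosphatase gene used to stain pluripotent colonies, had 5555 to 7820 counts in the thirties and 3845 to 4753 in the forties clones (-0.69, adjusted p = 0.00225). Dppa2 (-0.52, adjusted p = 0.019), Dnmt3l (-0.75, adjusted p = 0.0482) and Pecam1 (-0.97, adjusted p = 0.027) were lower as well. For Nanog the log2 difference was -0.21 (adjusted p = 0.449), for Sox2 -0.29 (adjusted p = 0.0523), for Klf4 0.13 (adjusted p = 0.66) and for Tfcp2l1 -0.12 (adjusted p = 0.503), and none of these passed. The list had 6 called members without Ctrl 43, without TKO 35 or without TKO 47, and 5 without TKO 37.

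Of 33 measured endoderm genes 10 were higher and 1 lower, with a median of 0.34. With at least 10 reads required in every library, 7 were called. Foxa2, a pioneer factor of endoderm and node, had 2.71 to 6.27 counts in the thirties and 30.6 to 96.6 in the forties clones (3.42, adjusted p = 0.00214). Sox17, an endoderm factor also found in endothelium, had 5.42 to 14.4 against 20.03 to 88.3 (1.85, adjusted p = 0.025). The laminin genes Lama1 (1.00, adjusted p = 0.00139) and Lamb1 (0.89, adjusted p = 0.00459) and the activin antagonist Fst (1.54, adjusted p = 0.00195) were higher, whereas Sparc, a matrix protein gene also on the fibroblast list, was lower (-0.51, adjusted p = 0.0232). Afp and Ttr, which define visceral endoderm, were near 0 in all clones. Without TKO 37, 7 members were called. Of 29 neural genes, 6 were higher and 1 lower (median 0.19), among them the growth cone gene Gap43, with 35.7 to 151 counts in the thirties and 333 to 554 in the forties clones (2.55, adjusted p = 0.0024). The neural progenitor factors Sox1 and Pax6 did not pass. The neural count depends on the TKO thirties clones, with 2 called without TKO 35 or without TKO 37, and 4 without Ctrl 43 or without TKO 47. Of 23 trophoblast genes, 1 was higher and 6 were lower (median -0.36), with Hand1, Gata2 (-0.71, adjusted p = 0.0448) and Slco2a1 (-0.70, adjusted p = 0.0115) among them, while Tpbpa was at 0 in all clones. Gata2 was not called in 9 of 19 alternatives. Without TKO 35 or without TKO 47, 3 trophoblast genes were called, and 4 without TKO 37.

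**Figure D2:**
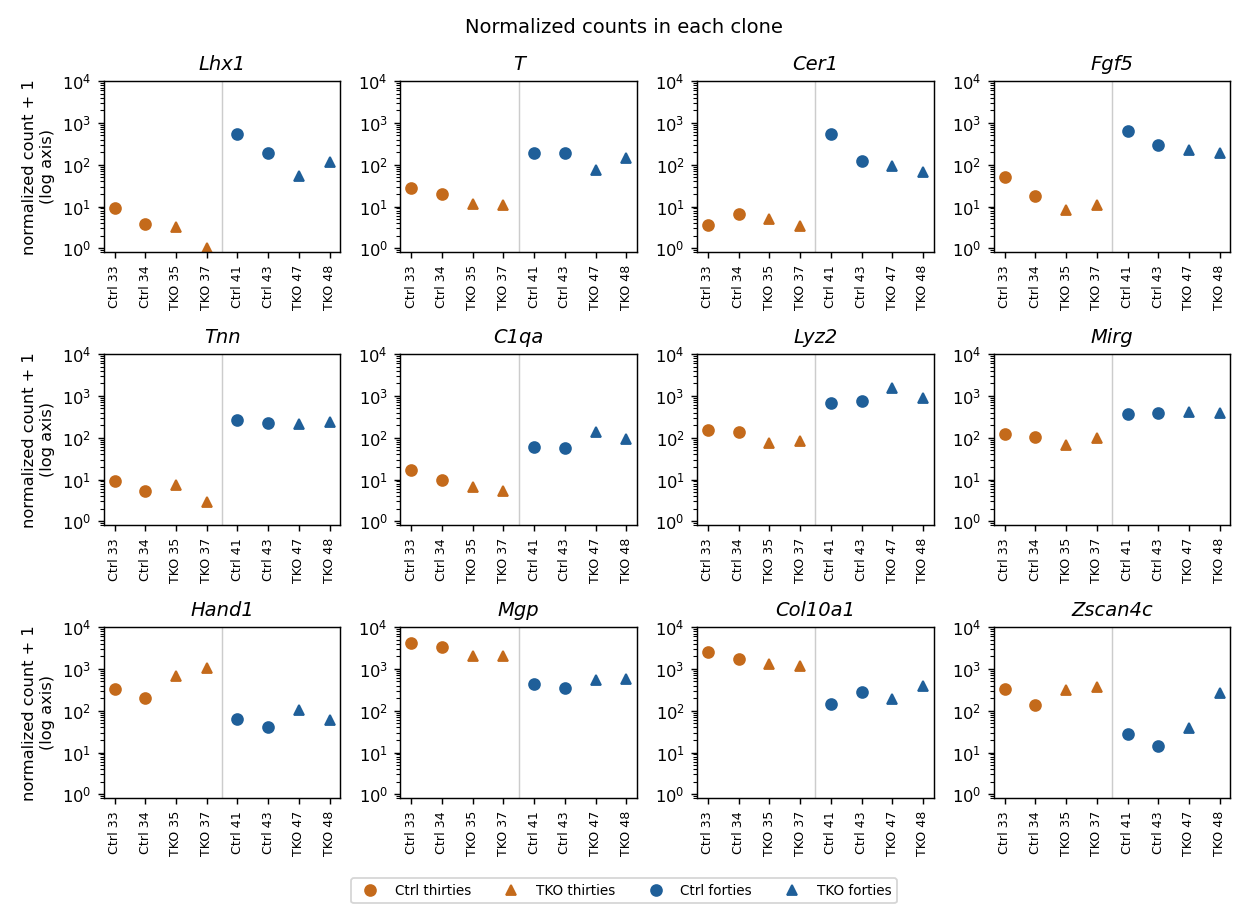
Normalized count + 1 (log y axis) of 12 genes in each of the 8 clones (x axis), with circles for Ctrl, triangles for TKO, orange for thirties and blue for forties clones. Lhx1, T, Cer1, Fgf5, Tnn, C1qa, Lyz2 and Mirg are higher and Hand1, Mgp and Col10a1 lower in each forties clone than in every thirties clone, while Zscan4c in TKO 48 (267) lies within the thirties clones.

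Complement and other macrophage genes formed another group of higher genes. C1qa, C1qb and C1qc encode the chains of C1q, which is made mainly by macrophages. They lie side by side on chromosome 4 (mm9, chr4:136436044-136454718). C1qc had 8.13, 4.32, 1.13 and 4.34 counts in Ctrl 33, Ctrl 34, TKO 35 and TKO 37 and 40.5, 42.8, 127 and 52.2 in Ctrl 41, Ctrl 43, TKO 47 and TKO 48 (log2 difference 4.25, standard error 0.55, adjusted p = 0.00173). C1qa (3.66, adjusted p = 0.00139) and C1qb (3.55, adjusted p = 0.000955) followed it, and TKO 47 was the highest clone for all 3. Thirties values of the C1q genes rest on 2 to 14 reads a library. C1qb and C1qc passed the filter with the help of the forties libraries, so their differences are a description. Lyz2, the macrophage lysozyme, had 152, 138, 75.3 and 82.0 counts against 673, 741, 1581 and 905 (3.19, standard error 0.34, adjusted p = 0.000883). Csf1r, the receptor of the macrophage growth factor M-CSF, had 10.8 to 43.3 counts against 59.2 to 120 (2.12, adjusted p = 0.00964).

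On a macrophage list chosen after these genes had been seen, 18 of 21 measured members were higher and 0 lower, with a median log2 difference of 3.33. It includes Adgre1, which encodes F4/80 (3.36, adjusted p = 0.00102), Mpeg1 (3.52, adjusted p = 0.00177), Tyrobp (4.79) and the scavenger receptor gene Msr1 (3.73). Thirties values were 0 to 2.90 counts for Tyrobp and 0.483 to 8.13 for Msr1. Msr1 passed the filter through its forties libraries alone and Tyrobp with their help, so these differences are a description. Summed over the list, the thirties clones had 1644 to 2167 counts and the forties clones 3250.5 to 5105, without overlap. The median was 1.81 within Ctrl and 3.98 within TKO. Because the members were picked for their difference, this count is a description. Of the broader blood list, 7 of 14 measured members were higher and 0 lower (median 1.47), while the pan-leukocyte gene Ptprc and the alpha-globin gene Hba-a1 were at or near 0. With at least 10 reads required in every library, 5 macrophage and 4 blood genes were called. Whether other cells in the cultures took part in this was not tested.

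The 250 bases before the start of C1qc are shown for this group, because its promoter holds the letters GAGGAAGT, a core bound by the myeloid factor PU.1. The match lies on the other strand from the gene, beginning 195 bases before the start, and is in capitals. The window is chr4:136892915-136893164 of GRCm38.p6, read on the minus strand.
C1qc: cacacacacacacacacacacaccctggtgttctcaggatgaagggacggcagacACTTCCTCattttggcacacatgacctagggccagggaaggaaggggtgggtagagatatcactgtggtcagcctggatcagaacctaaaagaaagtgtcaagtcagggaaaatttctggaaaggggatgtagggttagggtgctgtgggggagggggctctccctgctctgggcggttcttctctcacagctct
GAGGAAGT was in 2 of the 9 promoters of higher macrophage genes in the table, and in 2.84% of all 11128.

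Secreted and matrix genes stood at both ends of the list. Tnn, which encodes the matrix protein tenascin-W, had 8.13, 4.32, 6.22 and 1.93 counts in the thirties and 261, 219, 211 and 232 in the forties clones (log2 difference 5.63, standard error 0.31, adjusted p = 2.59e-05). The forties clones were within a narrow range whatever their genotype. The thirties values rest on 3 to 11 reads, so the difference and its adjusted p are a description. Dpt, the dermatopontin gene (3.69, adjusted p = 0.00198), and Lrrc17 (3.55, adjusted p = 0.000407) were higher as well. So was Serpina3h, a transcribed pseudogene of a serine protease inhibitor family (4.97, adjusted p = 0.00189). Serpina3h belongs to a family of near-identical copies, so its reads may be shared. The other higher genes of the rule were Dhrs9, a retinol dehydrogenase gene (4.90, adjusted p = 0.000179), and Gm15772, also a transcribed pseudogene (3.73, adjusted p = 0.000219).

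In the other direction, Mgp, the matrix Gla protein that inhibits calcification, had 4085, 3310, 1977 and 1979 counts in the thirties and 424, 349.5, 532 and 584 in the forties clones (-2.53, standard error 0.26, adjusted p = 0.000835). Col10a1, the collagen of hypertrophic cartilage, had 2473, 1762, 1287 and 1172 against 144, 286, 188 and 391 (-2.67, adjusted p = 0.00152). Mmp13, a collagenase of the same cartilage, had 1065, 733, 358 and 360 against 87.2, 71.3, 93.2 and 98.3 (-2.68, adjusted p = 0.00109). In all 3 genes the Ctrl thirties clones were the highest, and the forties clones of both genotypes were low. Itih2, which encodes a hyaluronan-binding inhibitor chain (-2.39, adjusted p = 0.00193), and Nrn1, the neuritin gene (-2.81, adjusted p = 0.00169), were lower as well. Nrn1 had 211, 140, 97.3 and 105 counts against 9.35, 19.4, 29.1 and 17.1.

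Over the whole fibroblast and extracellular matrix list, 12 of 47 measured genes were higher and 2 lower, with a median of 0.56. The most expressed higher members were the metalloprotease inhibitor genes Timp3 (1.16, adjusted p = 0.000699) and Timp2 (0.93, adjusted p = 0.036) and the collagen gene Col6a1 (1.26, adjusted p = 0.0112). Elastin (Eln) was lower (-1.73, adjusted p = 0.00513). None of the 7 defining fibroblast markers passed, and the list's median was -0.13 within Ctrl and 1.06 within TKO. The summed list was 158204 and 170367 counts in TKO 37 and TKO 35, and 232990 to 349097 in the other 6 clones, so the higher calls go with low values of the TKO thirties clones. The count was 4 without TKO 35, 5 without TKO 37 and 23 without Ctrl 33. Of 25 contractile, SRF and YAP target genes 5 were higher and 1 lower (median 0.07), led by Vcl, the vinculin gene (0.73, adjusted p = 0.00524). Of 24 endothelial genes 5 were higher and 2 lower (median 0.17), with Kdr (0.96, adjusted p = 0.00909) higher and Tie1 (-1.82, adjusted p = 0.00755) lower, and 4 were called without TKO 35 and 2 without TKO 37. Of 14 muscle genes 2 were higher and 3 lower (median -0.16), with Des, the desmin gene, at 894 to 1715 counts in the thirties and 247 to 439 in the forties clones (-1.75, adjusted p = 0.0019). Apart from Ctrl 33 and Ctrl 34, leaving out any clone left 3 muscle genes called.

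Genes of the two-cell embryo were lower in the forties clones as a group. Of 40 measured members of the two-cell-stage list, 0 were higher and 25 lower, with a median log2 difference of -1.90. With at least 10 reads required in every library, 10 were called. Zscan4c, which acts in telomere maintenance in embryonic stem cells, had 322, 135, 307 and 368 counts in Ctrl 33, Ctrl 34, TKO 35 and TKO 37 and 27.0, 13.3, 37.1 and 267 in Ctrl 41, Ctrl 43, TKO 47 and TKO 48 (-2.09, standard error 0.65, adjusted p = 0.0484). TKO 48 was within the range of the thirties clones, and the other forties clones were below all of them. Zscan4b, Zscan4d and Zscan4f had the same pattern, with differences of -1.76, -2.08 and -2.23 (adjusted p from 0.0425 to 0.0491). These calls are borderline: Zscan4b was not called in 9 of 18 alternatives, Zscan4c in 11 of 19, Zscan4d in 12 of 19 and Zscan4f in 11 of 18, among them the fits that left out any 1 clone other than TKO 48. Gm4340, the most expressed member, had 6141, 2504, 5893 and 6590 counts against 818, 394, 671 and 3197 (-2.24, adjusted p = 0.0142). Tcstv3 (-2.27, adjusted p = 0.0123) and Tmem92 (-2.37, adjusted p = 0.00401), other transcripts of this stage, were lower too, and so was Gm8300 (-2.36, adjusted p = 0.00488). Nelfa, whose protein acts upstream of the two-cell program, had a small difference (-0.39, adjusted p = 0.0352), which was not called in 9 of 19 alternatives.

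The median of the two-cell-stage list was -2.84 within Ctrl and -1.18 within TKO. The summed list was 12513 to 19994 counts in the thirties clones, 6193 to 8380 in Ctrl 41, Ctrl 43 and TKO 47, and 14288 in TKO 48. Without TKO 48, 31 members were called, and 13 to 15 were called without any 1 of Ctrl 41, Ctrl 43, TKO 35, TKO 37 or TKO 47. Most members have near-identical copies, and the sources do not state where reads matching more than 1 record were counted, so the split between copies is uncertain. On a list of the Pramel family, expressed in preimplantation embryos and germ cells, 11 of 18 were lower and 0 higher (median -1.43). This list was added after these genes had been seen, and 10 of its 18 measured members are also on the two-cell-stage list. Of the 8 that are not, 6 were lower (median -1.79), and of the 30 two-cell-stage members outside the Pramel family, 20 were lower (median -1.98). The summed Pramel list was 5236 to 6332 counts in the thirties clones, 3319, 2821 and 4897 in Ctrl 41, Ctrl 43 and TKO 47, and 6252 in TKO 48, within the range of the thirties clones. Pramel16 had 176, 73.4, 122 and 118 counts against 17.7, 8.15, 12.02 and 35.9 (-2.70, standard error 0.42, adjusted p = 0.00327). Pramel24 (-2.52, adjusted p = 0.00798) and Pramel20 (-2.50, adjusted p = 0.0045) were also among the 12 most reduced genes, and 7 members were called without Ctrl 43. The last member of those 12 was Fhad1 (-2.49, adjusted p = 0.000502).

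The promoters of Zscan4c and Zscan4f show how alike these copies are. Both read on the plus strand of chromosome 7, at chr7:11005495-11005744 and chr7:11397665-11397914 of GRCm38.p6, and CTTTGA is in capitals.
Zscan4c: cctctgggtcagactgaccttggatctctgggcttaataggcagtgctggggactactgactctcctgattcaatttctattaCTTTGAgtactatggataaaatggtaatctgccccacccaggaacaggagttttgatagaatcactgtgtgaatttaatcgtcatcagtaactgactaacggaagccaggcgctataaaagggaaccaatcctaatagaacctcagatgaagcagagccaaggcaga
Zscan4f: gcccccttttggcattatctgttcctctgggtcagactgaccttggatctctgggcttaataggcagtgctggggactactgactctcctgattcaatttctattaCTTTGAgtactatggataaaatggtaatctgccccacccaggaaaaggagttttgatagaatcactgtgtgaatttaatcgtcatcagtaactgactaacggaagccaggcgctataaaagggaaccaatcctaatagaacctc
Over the whole 300-base windows, the longest identical run is 127 bases, and 275 bases lie in identical runs of at least 20. Of 15 lower two-cell-stage genes with a promoter in the table, 9 hold CTTTGA, against 12.1% of all promoters, and 6 hold TAATCC, the bicoid-type core bound by Otx and Obox factors, against 5.76%. Copies share their letters, so these counts are not independent.

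In the imprinted Dlk1-Dio3 cluster on chromosome 12, whose maternal noncoding RNAs are often silenced in mouse iPSCs, 4 of 9 measured genes were higher and 0 lower, with a median of 0.67. Rian had 3353, 3094, 1694 and 2194 counts in the thirties and 5737, 6497, 5495 and 6175 in the forties clones (1.26, standard error 0.15, adjusted p = 0.00111). Mirg had 125, 102, 65.1 and 99.9 against 369, 392, 403 and 381 (2.02, standard error 0.18, adjusted p = 0.000497). Meg3 had 1281, 1019, 607 and 720 against 1416, 1565, 1396 and 1460 (0.75, standard error 0.16, adjusted p = 0.0114). The forties clones of both genotypes held close to 1 level of each of these maternal RNAs, and the thirties clones were lower but not at 0. Begain, a gene at the edge of the cluster, was higher (0.99, adjusted p = 0.0191). The paternally expressed Rtl1 (0.67, adjusted p = 0.113) and Dio3 (-0.01, adjusted p = 0.993) did not pass, nor did Dio3os (0.20, adjusted p = 0.732), Wdr25 (0.15, adjusted p = 0.52) and Ppp2r5c (-0.38, adjusted p = 0.0756). Dio3 and Dio3os had 3 to 24 reads a library. Elsewhere, of 24 paternally expressed imprinted genes 4 were higher and 1 lower (median 0.37), with Zdbf2 (0.79, adjusted p = 0.00714) and Mest (0.59, adjusted p = 0.0104) higher and the transporter gene Slc38a4 lower (-0.55, adjusted p = 0.018). Of 27 maternally expressed ones, 4 were higher and 1 lower (median 0.15), and 3 of these 4 are Meg3, Rian and Mirg. Without Ctrl 34, 8 members of each of these last 2 lists were called, and 3 of the paternally expressed without TKO 35, TKO 37 or TKO 47.

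Genes of antigen presentation were called more often than the background in both directions: of 34 measured MHC class I and antigen presentation genes, 9 were higher and 6 lower, with a median of 0.14. B2m, the light chain of class I molecules, had 1755, 1307, 632 and 674 counts in the thirties and 1890, 1916, 1891 and 2558 in the forties clones (1.05, standard error 0.27, adjusted p = 0.0245). The difference was 0.32 within Ctrl and 1.77 within TKO. Psmb8, a subunit of the immunoproteasome, had 5.79 to 15.8 counts against 63.3 to 107 (3.00, adjusted p = 0.000687). Nlrc5, the transactivator of class I genes, had 12.1 to 13.6 counts against 46.7 to 72.7 (2.28, adjusted p = 0.000691). H2-D1 (0.79, adjusted p = 0.0122) was higher, H2-K1 did not pass (-0.14, adjusted p = 0.58), and H2-Q7 was lower (-1.53, adjusted p = 0.00774), and class I genes share near-identical sequence. The list had 5 called members without TKO 35 or without TKO 37, and 9 without TKO 47. The 250 bases before the start of B2m, chr2:122147437-122147686 of GRCm38.p6 on the plus strand, are shown with the core of the interferon-stimulated response element, GAAA followed by 2 bases of any kind and GAAA again, in capitals from 139 bases before the start.
B2m: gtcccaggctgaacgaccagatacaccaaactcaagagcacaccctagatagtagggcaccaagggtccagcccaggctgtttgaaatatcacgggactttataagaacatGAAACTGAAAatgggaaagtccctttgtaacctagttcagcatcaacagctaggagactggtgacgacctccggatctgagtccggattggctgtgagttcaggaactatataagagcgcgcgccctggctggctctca
This motif was in 3 of 7 promoters of the higher genes of the list and in 2.90% of all promoters.

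Interferon genes were also split, with 8 of 47 higher and 5 lower (median 0.11). Gbp2, a guanylate-binding protein gene, had 16.4 to 73.1 counts against 122 to 324 (2.77, adjusted p = 0.000883), while Stat2 (-0.94, adjusted p = 0.00198) and Oas3 (-1.05, adjusted p = 0.00552) were lower. The median was -0.35 within Ctrl and 0.53 within TKO, and the count was 3 without TKO 35, 4 without TKO 37, 6 without TKO 47, 7 without Ctrl 41 or TKO 48 and 8 without Ctrl 43. Of 32 chemokine and cytokine genes, 4 were higher and 3 lower (median 0.37), with Il1rl1, the IL-33 receptor gene, higher (2.56, adjusted p = 0.00458) and Il6 lower (-2.09, adjusted p = 0.0363). Il6 had 100.2 and 105 counts in Ctrl 33 and Ctrl 34 and 5.01 to 14.0 in the other 6 clones. That count was 4 without Ctrl 33, Ctrl 43 or TKO 35 and 2 without TKO 37.

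Signalling genes were described by pathway. Of 60 WNT genes 11 were higher and 3 lower (median 0.17), and the higher ones include the ligands Wnt2 (2.64, adjusted p = 0.00287), Wnt3 and Wnt5a (1.63, adjusted p = 0.0104), the R-spondin receptor gene Lgr5 (2.07, adjusted p = 0.00953), the antagonist genes Dkk2 (2.20, adjusted p = 0.00189) and Notum (1.35, adjusted p = 0.0197), and the targets T and Sp5. Dkk2 had 81.5 to 279 counts in the thirties and 598 to 683 in the forties clones. Of 34 BMP and Id genes, 7 were higher and 3 lower (median 0.11). The higher ones include the targets Id1 (1.21, adjusted p = 0.00997), Id2 (0.75, adjusted p = 0.0151) and Id3 (0.85, adjusted p = 0.048), of which Id3 was not called in 11 of 19 alternatives. Bmp7, a ligand gene, was lower, with 132.5 to 402 counts in the thirties and 98.8 to 176 in the forties clones (adjusted p = 0.0206). Of 33 Nodal, activin and TGF-beta genes 6 were higher and 3 lower (median 0.06), with the activin subunit gene Inhbb higher (0.75, adjusted p = 0.00791) and the type I receptor gene Acvr1b lower (-0.52, adjusted p = 0.0265), while Nodal itself did not pass (0.21, adjusted p = 0.446). Of 40 FGF and ERK genes 4 were higher and 3 lower (median -0.07), among them Fgf5, Fgf10 (1.22, adjusted p = 0.00413) and the adaptor gene Frs2 (-0.45, adjusted p = 0.0137). Of 19 LIF and gp130 genes 2 were higher and 2 lower (median 0.12), with the receptor genes Lifr (0.49, adjusted p = 0.0241) and Osmr (1.32, adjusted p = 0.0204) higher and the target Pim1 lower (-0.46, adjusted p = 0.0065). Of 27 AP-1 and immediate early genes, 1 was higher and 2 lower (median 0.06). Without TKO 35 these counts were 9 WNT, 3 BMP, 5 Nodal, 3 FGF and 1 LIF gene, and without TKO 37 they were 8, 3, 5, 3 and 1. Among the other clones, the BMP count was 4 without TKO 47 and 5 without Ctrl 43 or TKO 48, the LIF count 2 without TKO 47 or TKO 48, the FGF count 12 without Ctrl 33, and the AP-1 count 5 without Ctrl 34.

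Genes of cholesterol and lipid synthesis were lower more often than the background, with 2 of 41 higher and 10 lower and a median of -0.29. Srebf2, the master regulator of this pathway, had 8218, 5888, 10910 and 9593 counts in the thirties and 5728, 5704, 5986 and 5017 in the forties clones (-0.60, standard error 0.15, adjusted p = 0.0206). Ctrl 34 was near the forties clones, and TKO 35 and TKO 37 were the highest. Its feedback regulator Insig1 (-0.75, adjusted p = 0.0212), the last enzyme of the pathway Dhcr7 (-0.81, adjusted p = 0.00518) and the desaturase genes Scd1 (-0.56, adjusted p = 0.0198) and Fads2 (-0.61, adjusted p = 0.0143) were lower, whereas Fasn was higher (0.43, adjusted p = 0.0296). The median was -0.05 within Ctrl and -0.57 within TKO. The count was 19 without Ctrl 34 and 5 without each TKO clone in turn.

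Of 42 glycolysis and hypoxia genes, 2 were higher and 4 lower (median -0.07), with the glucose transporter gene Slc2a3 lower (-0.44, adjusted p = 0.0141) and the hexokinase gene Hk2 higher (0.42, adjusted p = 0.00761). Of 72 nuclear oxidative phosphorylation genes, 6 were higher and 0 lower (median 0.08), all by less than 1.5-fold. This is 8.33% called, against 20.4% of all genes. Of 37 p53 targets and Ink4/Arf genes 8 were higher and 6 lower (median -0.07). Cdkn1a, the p21 gene, had 124 to 184 counts against 195 to 376 (1.01, adjusted p = 0.00987), and Cdkn2b (1.39, adjusted p = 0.0162), Bax (0.53, adjusted p = 0.0122) and Fas (1.44, adjusted p = 0.00501) were also higher, while the stress sensor Gadd45a was lower (-0.43, adjusted p = 0.0231). Of 43 cell cycle genes, 5 were higher and 5 lower (median 0.03), led in size by Ccnd1, the cyclin D1 gene (1.52, adjusted p = 0.0184), with 7365, 4925, 1961 and 2124 counts against 8091, 10400, 8534 and 13850. Of 40 genes of amino acid stress and one-carbon metabolism, 4 were higher and 1 lower (median -0.03), among them Mat2a, which makes the methyl donor S-adenosylmethionine (0.85, adjusted p = 0.00103), and the stress gene Ddit3, which was lower (-0.97, adjusted p = 0.00102). Without TKO 35, 2 glycolysis, 1 oxidative phosphorylation, 5 p53 and 4 cell cycle genes were called, and without TKO 37 there were 3, 1, 4 and 5. The glycolysis count was 13 and the oxidative phosphorylation count 10 without Ctrl 34. The latter was 2 without Ctrl 41, 3 without Ctrl 43 and 1 without TKO 47, the p53 count 8 without Ctrl 41 and 7 without Ctrl 43, and the cell cycle count 6 without TKO 47.

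Germline and chromatin groups and housekeeping genes were near the background, and ribosomal protein genes were called less often. Of 55 germline and meiosis genes 5 were higher and 5 lower (median -0.05), with Stra8, the retinoic acid target of meiotic entry, at 385 to 645 counts in the thirties and 58.1 to 124 in the forties clones (-2.22, adjusted p = 0.00114). Of 22 piRNA pathway genes 3 were higher and 1 lower (median -0.05), of 23 DNA methylation and demethylation genes 3 and 3 (median 0.02), of 26 H3K9 and retrotransposon silencing genes 2 and 2 (median 0.01), and of 19 replication-dependent histone genes 1 and 3 (median -0.05). The TruSeq RNA kit is normally used with selection of polyadenylated RNA, which histone transcripts of this kind lack. Of 27 housekeeping genes 2 were higher and 4 lower (median -0.10), with the translation factor gene Eef1a1 at 314500 to 427400 counts against 258600 to 283800 (-0.44, adjusted p = 0.00792). Of 75 cytosolic ribosomal protein genes 3 were higher and 3 lower (median -0.01), which is 8% called against 20.4% of all genes. When each clone was left out in turn, the called members ran from 1 to 6 of the piRNA list, 0 (without TKO 35) to 6 of DNA methylation, 1 to 6 of H3K9, 1 to 4 of histones, 3 to 9 of housekeeping and 1 to 9 of ribosomal genes, so none of these small counts is stable.

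**Figure D3:**
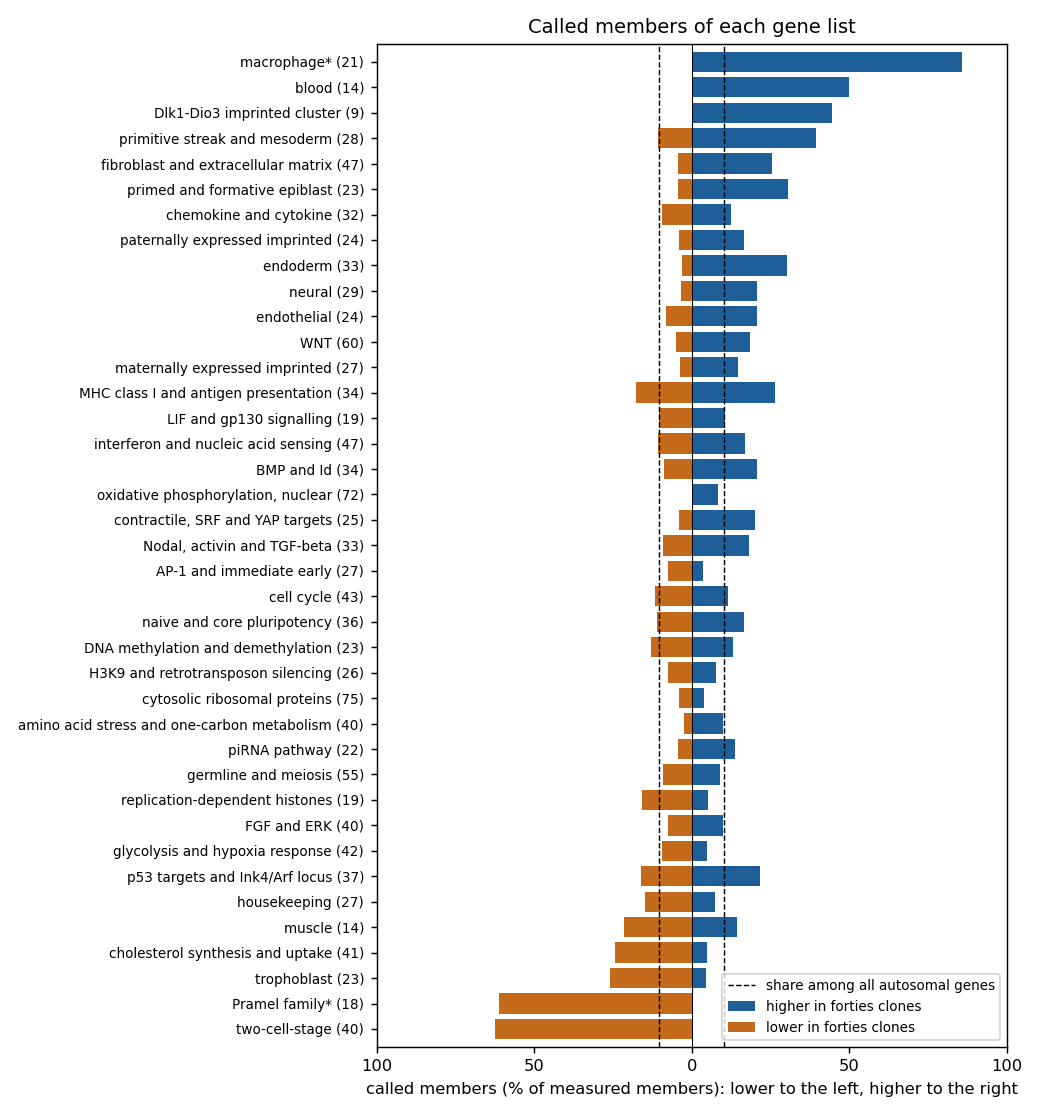
Share of the measured members of each gene list (number measured in parentheses) that were called higher (blue, to the right) or lower (orange, to the left) in the forties clones, in percent on the x axis, with dashed lines at the shares over all autosomal genes (10.3% lower, 10.1% higher) and asterisks on the 2 lists chosen after seeing the data. The macrophage list reaches 18 of 21 higher and the two-cell-stage list 25 of 40 lower.

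Within the Ctrl clones alone, 1013 records (6.63%) differed between the series, 497 higher and 516 lower, and within the TKO clones 3678 (24.1%), 1972 higher and 1706 lower. All 4 groups entered 1 model for these contrasts and share its estimate of the spread. Each of the 2979 records called over both genotypes had the same sign in Ctrl and in TKO, which the joint model favours by its construction. Of these, 768 passed within Ctrl, 2139 within TKO and 554 in both. Their median absolute log2 difference was 0.60 in Ctrl and 0.81 in TKO. The TKO libraries of the thirties are also the deepest, and with all libraries thinned to the smallest total 2402 records were called within TKO. These counts also depend on single clones, with 56 to 2268 called within Ctrl and 672 to 5224 within TKO when each clone was left out in turn.

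The difference between the genotypes in the series effect itself was called for 201 records (1.32%), 162 with a more positive effect in TKO and 39 with a more negative one, and 34 of them were among the 2979. The 6 genes named are those with the smallest interaction p among records with a mean of at least 50 counts. Ccl2, a chemokine gene that draws monocytes, had 1306 and 986 counts in Ctrl 33 and Ctrl 34, 109 and 112 in TKO 35 and TKO 37, 728 and 864 in Ctrl 41 and Ctrl 43, and 1418 and 1609 in TKO 47 and TKO 48. The log2 difference was -0.52 in Ctrl and 3.77 in TKO (adjusted p of the interaction = 0.000279). Its neighbour Ccl7 had differences of -0.10 and 3.07 (adjusted p of the interaction = 0.00391), with 97.9 and 117 counts in TKO 35 and TKO 37 against 534 to 1005 in the other 6 clones. Pde7b (-0.18 and 3.09), a phosphodiesterase gene, and Mmp10 (-0.51 and 1.96), a stromelysin gene, had the same pattern of low values in TKO 35 and TKO 37 only. Serpinf1, the gene of the secreted protein PEDF, had differences of -0.79 and 1.38, and Gpt2, a mitochondrial alanine transaminase gene, of -0.94 and 0.38. The adjusted p of these 4 interactions ran from 0.0145 to 0.0197. In all 6 genes the TKO and Ctrl effects had opposite signs, and none was called over both genotypes. Lefty2, a Nodal antagonist that was not among these 6, had 896 and 1030 counts in TKO 35 and TKO 37 against 3759 to 7315 in the other 6 clones (adjusted p of the interaction = 0.0197). The interaction count ran from 1 to 1190 when each clone was left out in turn.

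**Figure D4:**
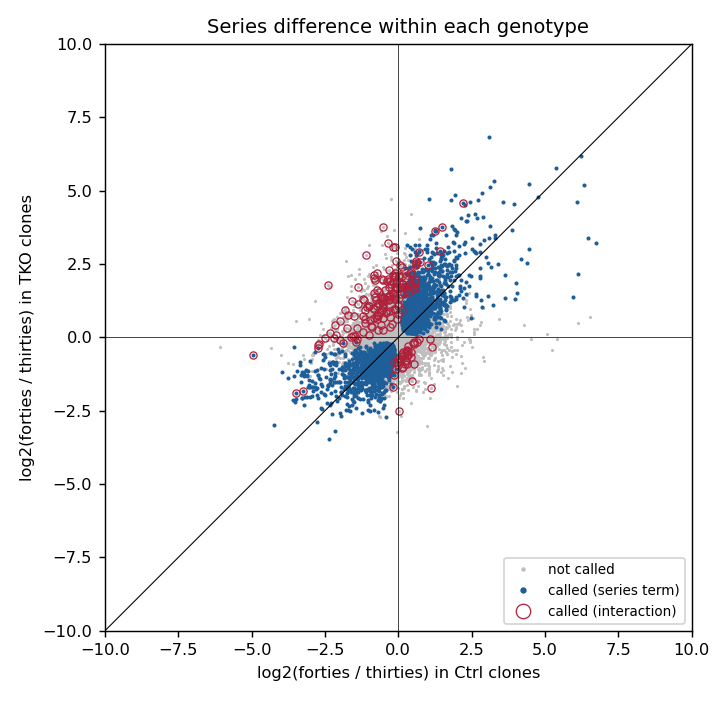
Fitted log2(forties/thirties) of each autosomal record in Ctrl (x axis) and in TKO clones (y axis), with records called by the series term in blue, interaction calls circled in red, the others in grey and a diagonal at equal effects. The 2979 called records lie in the quadrants of equal sign, and most of the 201 interaction calls (162) lie above the diagonal.

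Single clones stood apart in the level of a whole autosome. For each chromosome the median log2 deviation of its records from their mean over the 8 clones was taken. The forties mean minus the thirties mean of this value ran from -0.106 (chromosome 11) to 0.066 (chromosome 7) over the 19 autosomes. These differences are a description, because a two-sided exact permutation test with its 70 arrangements of the clones cannot go below 0.0286, which for 1 autosome is an adjusted p of 0.543, and 11 autosomes would have to reach it to pass. Among the clones, chromosome 11 was 0.309 above the mean in Ctrl 34, with -0.115 to -0.010 in the other clones, and chromosome 7 was 0.301 above it in TKO 48, with -0.127 to 0.021 in the others. On chromosome 11, 6.2% of the records were called higher and 15.5% lower, and on chromosome 1, 14.0% and 6.74%. Outside chromosomes 7 and 11, 2484 of the 2979 calls remained, and 2519 records were called in a fit without Ctrl 34 and TKO 48. Whether either clone carries an extra chromosome was not tested.

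**Figure D5:**
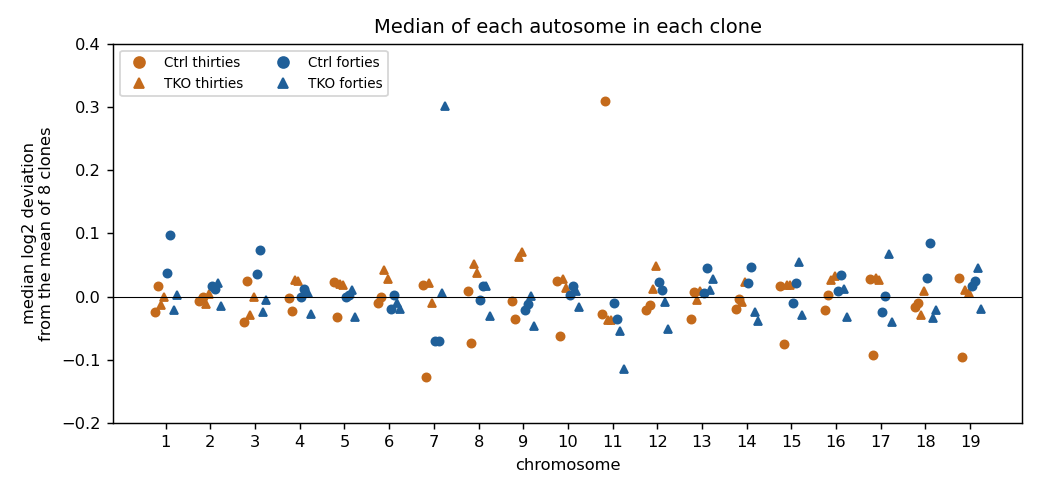
Median log2 deviation of the records of each autosome (x axis) from their mean over the 8 clones (y axis), 1 point per clone, with circles for Ctrl, triangles for TKO, orange for thirties and blue for forties clones. Ctrl 34 on chromosome 11 (0.309) and TKO 48 on chromosome 7 (0.301) lie apart from all other points.

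Neighbouring genes were sometimes called in the same direction. Among 13849 genes placed on mm9, 62 runs of at least 3 neighbours were called in the same direction (25 higher, 37 lower), and 10 of these had at least 4 genes. With 10.1% of all genes called higher and 10.3% lower, some runs arise without any link between neighbours, and their number was not worked out. Several lower runs lie on chromosome 11, where 15.5% of the records were called lower and the thirties clone Ctrl 34 was raised. The longest holds the 5 genes Zfp970, Gm14403, Gm14326, Zfp971 and Zfp931 on chromosome 2 (chr2:177249438-177813181), zinc finger genes of 1 cluster, with differences of 0.42 to 0.75 and a median of 0.69. Zfp970 had 1235 to 1554 counts in the thirties and 1893 to 2199 in the forties clones. The next are the Pramel run on chromosome 4 (chr4:143204906-143544602, median -2.50) and the Zscan4 run on chromosome 7 (chr7:11486098-11988090, median -2.08). These 3 runs are families of similar sequence, whose reads may be shared between neighbours. A run outside such families, noticed afterwards, holds the EGF-family ligand genes Ereg, Areg and Btc with Mthfd2l on chromosome 5 (median 1.84). Ereg had 347, 193, 41.3 and 37.6 counts in the thirties and 598, 837.5, 201 and 354 in the forties clones (2.10, adjusted p = 0.00383), and TKO 47 lay within the range of the Ctrl thirties clones.

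The genes with large differences, unlike the called genes as a whole, shared promoter features that the choice of genes did not use. Windows from 250 bases before to 50 after the start were matched for 11128 of the 14250 genes. The median GC content was 60.7% over all windows, 54.3% over 214 windows of genes at least 2.5-fold higher and 54.0% over 172 of genes at least 2.5-fold lower. The median ratio of observed to expected CpG was 0.743, 0.403 and 0.346, and it was 0.138 over 15 lower two-cell-stage genes. These genes are also weakly expressed, with a median of 38.9 and 39.4 counts against 371 over all, and the part of expression level in this was not tested. CTTTGA was in 14.5% of the higher and 20.3% of the lower windows, TAATCC in 3.74% and 14.0%, and the interferon-stimulated response element in 6.54% and 4.07%, all searched on both strands. Over all windows the shares of these 3 were 12.1%, 5.76% and 2.90%. The T-box core TCACACCT was in 0.935% of the higher and 0% of the lower windows, against 0.881% of all. Over all called genes, 1119 higher and 1142 lower, the median GC content was 60.0% and 60.8% and the CpG ratio 0.741 and 0.706. Of these windows, CTTTGA was in 11.1% and 12.9%, TAATCC in 4.74% and 6.48% and the interferon element in 3.93% and 2.98%. Zscan4 and other copies share their letters, so the motif counts are not independent.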

How the data were processed

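RNA of 8 mouse iPSC clones was sequenced with the Illumina TruSeq RNA kit. The authors mapped the reads with BWA (0.7.5a in the submitters' processing notes) to mm9 transcripts, and the deposited table holds whole-number counts per RefSeq record, neither scaled nor filtered. The rules for reads that match several records and for strand are not given in the sources used here. Records were kept if 4 or more of the 8 libraries had 5 or more reads, and these hold at least 99.97% of the counts of each library. Counts were scaled by the DESeq median ratio and fitted with edgeR 4.0.16 (R 4.3.3) by the quasi-likelihood test with terms for genotype and series. A model of 4 groups gave the effects within Ctrl, within TKO and their interaction. Adjusted p-values are those of Benjamini and Hochberg over all 16235 tested records and counted over autosomal ones, at 0.05 and, where stated, 2.5-fold. The common biological coefficient of variation was 0.171.

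Symbols, promoters and chromosomes came from RefSeq tables of GRCm38.p6 and an mm9 annotation, which placed 14864 of the autosomal records. A gene with more than 1 record is represented by its most abundant one. Named genes were the 12 higher and 12 lower genes with the largest change under the conditions given in the report, up to 4 called members of each list with the highest counts, all of the Dlk1-Dio3 cluster, 6 interaction genes, the Piwi genes with a placed record and the longest runs of neighbours. The members and lists were chosen with earlier results of these data known. The macrophage and Pramel lists were added after the data had been seen. No set test was run, and lists are described by counts and medians beside those of all genes.

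As alternatives, results were recomputed with DESeq2 1.42.0, TMM scaling, no filter on low counts, a minimum of 10 reads in each library, limma-voom (limma 3.58.1), robust dispersion, glmTreat, thinning to the smallest total, sums per symbol, no genotype term, the Ctrl clones or the TKO clones fitted alone and leaving out each clone. Chosen after seeing the data were TKO 35 and TKO 37 summed as 1 sample, the fit without Ctrl 34 and TKO 48, and a recount of the calls outside chromosomes 7 and 11. The series term was tested on simulated counts with edgeR under both scalings, DESeq2 and limma-voom. The model of 4 groups was tested in this way with edgeR only, and the other alternatives were not simulated. The table has no columns beyond the 8 clones. A few list members are left unreported.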

Additional observations from a re-analysis of the deposited data

Results flagged for a closer look

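Among the named genes and the autosomes, 410 groups of 4 clones were examined for a single value far from the other 3, and 31 (7.56%) had one, where chance gives about 1 in 20. TKO 48 stood apart from the other forties clones most often. Its normalized counts were the highest of the series for Gm4340 (3197), Pramel19 (283.9), Gm8300 (92.34), Pramel21 (76.09), Zscan4b (37.62), Zscan4c (266.8), Zscan4d (261.6) and Zscan4f (236), which are all two-cell-stage or Pramel genes, and for Tubb3 (6548), Slco2a1 (484.8) and B2m (2558). Of the other forties clones, Ctrl 41 stood apart for Cer1 (531.7) and TKO 47 for C1qc (127.2) and Oas3 (223.4). The part of shared reads between copies in the two-cell-stage values was not tested.

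Among the thirties clones, Ctrl 33, the shallowest library, stood apart for Lin28a (6027), Des (1715), Cnn2 (2969), Dusp1 (1896), Id1 (241.1), Il11 (54.18), Bax (5415) and H1f1 (48.76). Ctrl 34 stood apart for Gm4340 (2504), Tex14 (1341), Gadd45a (1899) and Dio3os (12.96). Its chromosome medians also lay apart from those of the other thirties clones, at 0.309 for chromosome 11 and at -0.032, -0.063, -0.075 and -0.093 for chromosomes 5, 10, 15 and 17. The gain on chromosome 11 and the losses elsewhere are relative to the same size factor and are not independent.

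The series effect differed between TKO and Ctrl (interaction adjusted p under 0.05) for 16 named genes, all with a more positive log2 effect in TKO. The difference was 4.29 for Ccl2, 3.17 for Ccl7, 3.26 for Pde7b, 2.46 for Mmp10, 2.27 for Il1rl1, 2.17 for Serpinf1, 1.86 for Ccnd1, 1.81 for Notum, 1.80 for Osmr, 1.59 for Mmp13, 1.55 for Dkk2, 1.45 for B2m, 1.43 for Mgp, 1.39 for Col6a1, 1.32 for Gpt2 and 1.31 for Fstl1. For Mgp and Mmp13 both genotypes were lower in the forties clones, and Ctrl by more.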

How the results depend on the processing

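No paired analysis was possible because no clone number occurs in more than 1 group. The 2979 series calls became 1324 without the genotype term and 1319 with TKO 35 and TKO 37 summed as 1 sample, and ran from 1211 (without TKO 35) to 3566 (without Ctrl 34) when 1 clone was left out. Under the other alternatives the count stayed within 1.5 times, from 2153 (libraries thinned) to 3711 (DESeq2), with 2967 under TMM scaling and 3470 by limma-voom. The 577 records past 2.5-fold became 256 with at least 10 reads in every library, 384 with libraries thinned and 39 (34 higher, 5 lower) when the 2.5-fold change itself was tested by glmTreat, and ran from 375 to 677 with 1 clone left out. The 1013 calls within Ctrl became 1665 with DESeq2 and 199 with the 4 Ctrl clones fitted alone (56 to 2268 with 1 clone left out), and the 3678 within TKO became 2402 with libraries thinned (672 to 5224). The 201 interaction calls became 631 without a filter, 868 with DESeq2 and 84 with libraries thinned, and ran from 1 to 1190. Leaving out a clone leaves 1 clone in its group, which is then assumed to vary like the others. The cause of these shifts was not tested, except that the stricter filter tests fewer records.

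Of 186 named genes 173 were called, against 20.4% of all genes. This share was set mostly by the naming rules, which take called genes wherever a list has any. Of the 173, 44 were called in all 19 alternatives. A further 19 were called in each alternative that tested them, since they were not tested in at least 1. The other 110 were not called in at least 1 alternative, and no called gene changed sign. Sign changes were seen in genes that did not pass: Serpinf1 became -0.01 with TKO 35 and TKO 37 summed (-0.01 to 0.62 with 1 clone left out), the value of Dio3 ran from -0.29 to 0.29, and that of the gene Piwil1 from -0.96 to 0.02, with 0.16 without Ctrl 34 and TKO 48. Thirties values of the leading higher genes rest on few reads, so their log2 differences depend on counting error as well.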

Other observations

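Noncoding RefSeq records were called less often than all records, at 75 of 585 (12.8%) against 19.5%, and this difference was not tested. Among genes outside the named rules, Lefty1, a Nodal antagonist gene, had 2321 and 1892 counts in Ctrl 33 and Ctrl 34, 463 and 375.5 in TKO 35 and TKO 37, and 683 to 1156 in the forties clones, so that the series effect was -1.37 in Ctrl and 1.13 in TKO (edgeR, adjusted p of the interaction = 0.0197).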
